A study of Mus musculus with 24 samples.

Results

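Sterol regulatory element binding proteins (SREBPs) are membrane-bound transcription factors of the endoplasmic reticulum that switch on the genes of cholesterol and fatty acid synthesis. The genes described here encode the machinery that decides whether an SREBP is active: the SREBP factors themselves (Srebf1, Srebf2), the escort protein that senses cholesterol and carries them to the Golgi (Scap), the paralogous anchors that hold the escort in the endoplasmic reticulum (Insig1, Insig2), the Golgi proteases that cut the factors free (Mbtps1, the site-1 protease; Mbtps2, the site-2 protease), and a soluble sterol carrier that moves cholesterol between membranes and is itself a target of SREBP-2 (Stard4). They were taken by gene name, with no threshold on their values, and all 8 are among the 12310 genes of the count table and passed the filter on low counts, which kept 12306 genes. None of them encodes a lipoprotein receptor. Uptake genes are therefore given as a list further on.

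Transcripts were counted by RNA sequencing in MIN6 cells, an insulin-secreting line derived from a mouse insulinoma, in 12 libraries of cells treated with verapamil (50 µM; 24 h), a blocker of L-type calcium channels, and in 12 libraries of untreated cells (control). The paper describes no genetic change made to these cells. All were kept at 5.6 mM glucose, so the comparison rests on a single transformed line, dose and time. The 12 libraries of a group came from 4 experiment sets of 3 libraries each. Whether the 3 libraries of a set came from separate cultures is not spelled out, so p-values over 12 libraries measure the spread between libraries, which may be technical in part. Set membership was read from the first digit of a label, a reading that no source spells out. Libraries are named as the count table heads its columns (C1 to C12, V1 to V12). For C11, C12, V11 and V12 the heading fits more than 1 sample label, so they carry no replicate number, and by elimination they belong to set 4. The β-cell identity of the line was visible in all groups: all 8 markers on the β-cell list were in the table, and their summed level was 2480 to 3410 CPM (read counts scaled for library size) in control and 2320 to 3190 CPM in verapamil-treated libraries. Iapp added little to this sum, at a mean of 2.19 CPM in control and 1.21 CPM with verapamil. Single markers moved in opposite directions within that sum, with Ins2 at 1320 CPM in control and 635 CPM with verapamil, Slc2a2 at 171 and 95.9 CPM, and Mafa at 697 and 1260 CPM. The part of these differences in the results below was not tested. Of the markers of other islet cells only Gcg (174 to 198 CPM in control, 176 to 333 CPM with verapamil), of acinar and ductal cells only Sox9, and of fibroblasts, endothelial cells and macrophages none of 7 were in the table. Any part of cells with Gcg transcript in the results was not tested.

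When cells have ample sterol, SCAP bound to an INSIG protein stays in the endoplasmic reticulum together with its SREBP cargo. When sterol falls, the complex leaves in COPII vesicles, and the released amino-terminal part of the SREBP enters the nucleus, where it binds sterol regulatory elements, usually next to sites for the factors NF-Y and Sp1. INSIG1 is both an inhibitor of the pathway and a classic transcriptional target of it, which closes a feedback loop, whereas INSIG2 is governed in other ways. SREBP-2 chiefly drives cholesterol genes and SREBP-1c fatty acid genes, the latter also under control of the oxysterol receptors (LXRs). In the β-cell, cholesterol shapes the granule and plasma membranes through which insulin is secreted.

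The promoters of both INSIG paralogs and both SREBP factors are shown because these pairs are compared below. Each run holds the 250 bases before an annotated RefSeq start and the 50 from it (GRCm38.p6), 5′ to 3′ on the strand of the gene. Capitals mark every match, on either strand, to an SRE core (TCACCCCA), an SRE-like pattern (TCACCNNA, which takes in the core and was chosen after the sequences were seen), an E-box (CACGTG), an NF-Y box (CCAAT) or an Sp1 box (GGGCGG). Of 32851 mouse promoter windows of this length, 1.56% held the SRE core, 12.5% the SRE-like pattern, 7.15% the E-box, 37.4% the NF-Y box and 35.7% the Sp1 box. The windows are chr5:28071162-28071461 (plus strand) for Insig1, chr1:121327629-121327928 (minus strand, the furthest downstream of 3 annotated starts) for Insig2, chr15:82147019-82147318 (plus strand) for Srebf2, and chr11:60210422-60210721 (minus strand, likewise the furthest downstream of 3) for Srebf1.
Insig1: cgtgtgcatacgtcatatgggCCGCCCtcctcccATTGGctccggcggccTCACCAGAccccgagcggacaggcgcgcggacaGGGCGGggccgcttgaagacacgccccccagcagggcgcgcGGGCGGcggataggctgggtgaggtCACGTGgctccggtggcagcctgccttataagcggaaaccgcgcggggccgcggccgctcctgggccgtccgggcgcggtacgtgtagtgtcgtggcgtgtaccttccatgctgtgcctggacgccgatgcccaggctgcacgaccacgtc
Insig2: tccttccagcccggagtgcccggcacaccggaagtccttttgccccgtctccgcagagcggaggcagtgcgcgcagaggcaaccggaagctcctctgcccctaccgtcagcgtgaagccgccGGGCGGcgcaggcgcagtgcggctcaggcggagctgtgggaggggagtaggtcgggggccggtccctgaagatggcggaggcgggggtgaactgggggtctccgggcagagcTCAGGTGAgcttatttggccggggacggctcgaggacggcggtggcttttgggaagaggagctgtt
Srebf2: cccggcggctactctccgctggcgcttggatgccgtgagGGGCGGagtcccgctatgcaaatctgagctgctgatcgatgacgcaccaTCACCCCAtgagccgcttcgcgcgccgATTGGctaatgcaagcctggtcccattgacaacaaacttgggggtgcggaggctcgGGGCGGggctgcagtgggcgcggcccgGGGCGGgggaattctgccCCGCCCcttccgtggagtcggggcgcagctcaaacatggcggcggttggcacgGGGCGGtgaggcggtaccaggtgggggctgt
Srebf1: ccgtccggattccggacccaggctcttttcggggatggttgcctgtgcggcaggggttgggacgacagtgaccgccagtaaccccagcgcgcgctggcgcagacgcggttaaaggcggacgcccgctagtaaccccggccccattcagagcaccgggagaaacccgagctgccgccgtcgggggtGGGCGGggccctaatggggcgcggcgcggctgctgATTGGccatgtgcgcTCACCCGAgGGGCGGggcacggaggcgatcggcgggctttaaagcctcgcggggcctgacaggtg
The Srebf2 window was the only 1 of 12 windows searched for 7 of the genes that held the SRE core, at bases -162 to -155 counted from the start, with an NF-Y box at -135 to -131 and 5 Sp1 boxes in the window. In the Insig1 window the SRE-like letters TCACCAGA stood at -200 to -193, the NF-Y box just before them at -216 to -212, and an E-box at -101 to -96. The Srebf1 window held TCACCCGA at -15 to -8 between an NF-Y box and an Sp1 box. The Insig2 window held an SRE-like match on the opposite strand at -16 to -9 and no NF-Y box, while the furthest upstream of the 3 Insig2 windows, not printed, held 3 NF-Y boxes and no SRE-like match. A match is a description of letters, not of a bound site.

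Verapamil-treated cells had more transcript of 4 of the 8 genes and less of 2, by edgeR's quasi-likelihood test with Benjamini-Hochberg adjustment over all genes tested and a threshold of 0.05. Insig1, Srebf2, Stard4 and Srebf1 were higher, Mbtps1 and Mbtps2 lower, and Scap and Insig2 did not pass. In this comparison 31.2% of all genes tested were called higher and 31.6% lower, so that calls as such are common, and the size of a change and the overlap between groups tell more. The median log2 fold change of the 8 genes was 0.19, against -0.003 over all genes. These are levels per total RNA of a culture, in which fewer cells of a type and less RNA per cell cannot be told apart. The plot of levels by library shows all 8 genes.

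**Figure D1:**
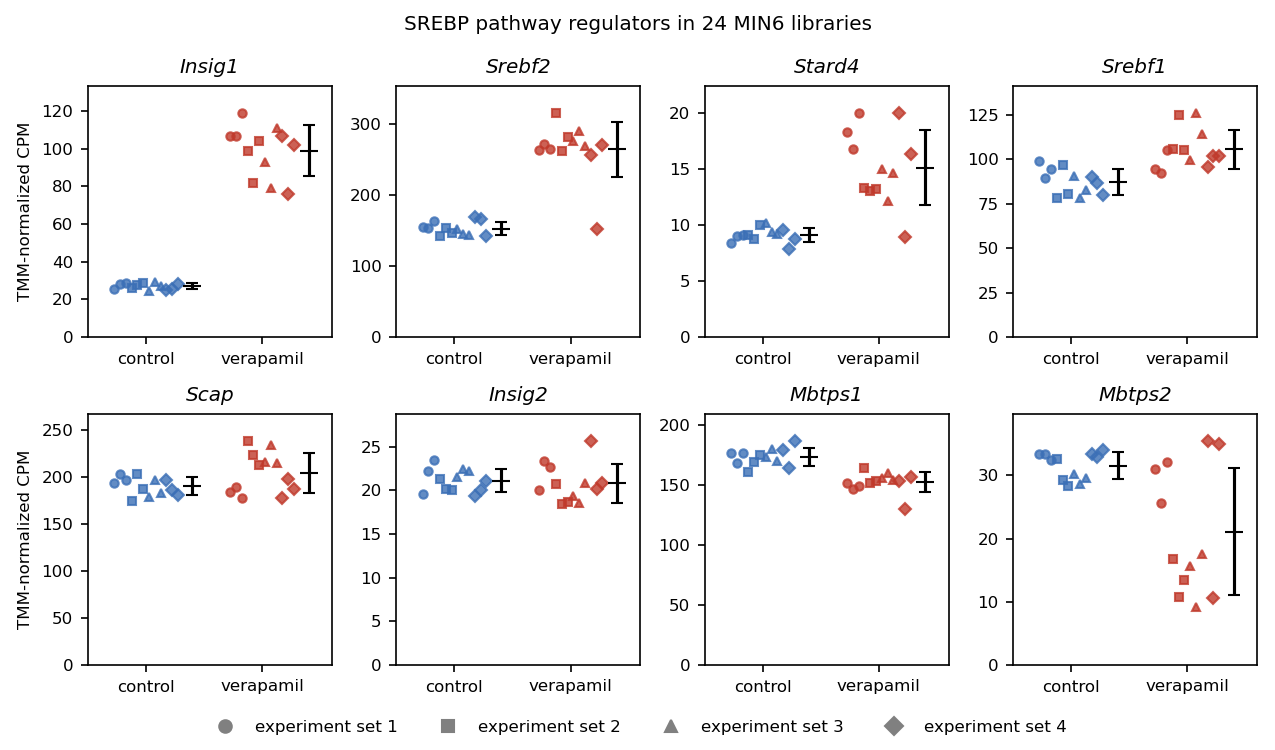
Level of the 8 SREBP pathway genes in each of 24 libraries, in CPM normalized by the trimmed mean of M values (TMM), with a linear axis from 0. Blue symbols are control and red symbols verapamil libraries, the shape gives the experiment set, and the bar beside each group is the mean ± SD (n = 12). The Insig1 groups are fully apart, from 24.3 to 29.2 CPM in control and 76.1 to 119 CPM with verapamil, while the verapamil libraries of Mbtps2 run from 9.09 to 35.5 CPM.

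Insig1 (chr5:28071363-28078662, plus strand, 5 exons in its longest transcript) had the largest change of the 8. Control libraries ranged from 24.3 to 29.2 CPM with a median of 27.4, and verapamil libraries from 76.1 to 119 CPM with a median of 103. Every one of the 12 verapamil libraries lay above every control library, a separation shown by 4.95% of all genes. The means were 27.0 ± 1.64 CPM (SD, n = 12) and 99.0 ± 13.7 CPM (SD, n = 12), a 3.66-fold difference (log2 fold change 1.87, standard error 0.0675, adjusted p = 2.1e-17 in edgeR). Behind these levels stood 337 to 920 reads per control library and 1759 to 5399 per verapamil library. Within sets the log2 difference was 2.02, 1.79, 1.82 and 1.85 in sets 1 to 4, and it was not found to vary between them (interaction of set and treatment, edgeR, adjusted p = 0.74). With the 3 libraries of a set summed to 1 value, 4 sums against 4 gave 1.89 (edgeR adjusted p = 6.1e-06), and the sums did not overlap (exact permutation test, p = 0.0286, the smallest that 4 against 4 allows).

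Insig2 (chr1:121304353-121332589, minus strand), the paralog with the same retention function, stayed near its control level. Control libraries ranged from 19.4 to 23.5 CPM and verapamil libraries from 18.4 to 25.7 CPM, with means of 21.1 ± 1.29 and 20.8 ± 2.18 CPM (SD, n = 12). The log2 fold change was -0.02 (standard error 0.0545, edgeR adjusted p = 0.74). The groups overlapped, with 4 verapamil libraries of sets 2 and 3 under the lowest control and 1 of set 4 above the highest.

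The balance between the paralogs therefore differed, and this ratio does not depend on how libraries are scaled. It can still depend on trends with GC content or length. Neither this ratio nor that of the SREBP genes below was recomputed with the offsets described further on. Those moved the log2 fold change of Insig1 from 1.872 to 1.89 and that of Insig2 from -0.022 to 0.152. Insig1 transcript stood at 1.28 times that of Insig2 in control cells (geometric mean of CPM ratios, range 1.13 to 1.43) and at 4.74 times in verapamil-treated cells (range 3.76 to 5.55). The ratio was above every control in all 12 verapamil libraries. The difference was 1.89 on the log2 scale (two-sided permutation test with 100000 resamples, p = 2e-05, the smallest these resamples can give), and between 1.71 and 2.00 within sets. Over set means the exact permutation test gave p = 0.0286, the smallest possible.

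Scap (chr9:110333288-110384950, plus strand, 23 exons), the sterol-sensing escort, had the highest level per length of the 8 genes in control cells. It ranged from 175 to 204 CPM in control (mean 190 ± 9.67, SD, n = 12) and from 178 to 239 CPM with verapamil (mean 205 ± 21.6, SD, n = 12). The log2 fold change of 0.105 (standard error 0.0507) did not pass the test (edgeR adjusted p = 0.074). It was the only one of the 8 genes for which the interaction of experiment set and treatment was called (adjusted p = 0.031 in edgeR, called for 9.72% of all genes). The set differences were -0.11 in set 1, 0.26 in set 2, 0.25 in set 3 and -0.005 in set 4 on the log2 scale. All 6 verapamil libraries of sets 2 and 3 exceeded every control library, and none of the other 6 did. For the remaining 7 genes the interaction adjusted p in edgeR lay between 0.19 and 0.74. That does not show equal responses, as the set differences of Mbtps2 ran from -1.14 to -0.16.

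Srebf2 (chr15:82147181-82205379, plus strand, 19 exons), which encodes SREBP-2 and carries the microRNA gene Mir33 in an intron, was higher in 11 of 12 verapamil libraries than in every control. Control libraries spanned 142 to 169 CPM with a median of 153, and verapamil libraries 153 to 316 CPM with a median of 270.0. The exception was V11 at 153 CPM, in the middle of the controls, with the other 11 at 256 CPM or more. The means were 153 ± 9.24 and 265 ± 38.5 CPM (SD, n = 12), a 1.73-fold difference (log2 fold change 0.79, standard error 0.0722, edgeR adjusted p = 2.8e-09). Within sets the log2 difference was 0.76, 0.96, 0.91 and 0.51. The lowest, in set 4, includes V11. Reads per library numbered 1789 to 11985.

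Srebf1 (chr11:60199089-60222581, minus strand, 19 exons in its longest and 12 annotated transcripts), whose products SREBP-1a and SREBP-1c were counted together, rose less. Its level was 78.0 to 99.1 CPM in control and 92.2 to 126 CPM with verapamil, with 9 of 12 verapamil libraries above every control. The means were 87.1 ± 7.32 and 106 ± 11 CPM (SD, n = 12), and the log2 fold change was 0.28 (standard error 0.0566, edgeR adjusted p = 0.00021). In set 1 the groups overlapped and the log2 difference was 0.05, whereas it was 0.40 and 0.44 in sets 2 and 3 and 0.23 in set 4. As the 2 SREBP genes rose by different amounts, the Srebf1 to Srebf2 ratio fell from 0.568 in control (range 0.520 to 0.638) to 0.402 (range 0.336 to 0.665). The log2 difference was -0.50 (two-sided permutation test with 100000 resamples, p = 8e-05), with 11 verapamil libraries below every control and V11 above. Over set means the exact permutation test again gave its smallest p of 0.0286, and the difference within sets lay between -0.71 and -0.24.

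The proteases that release the factors were lower in this fit, and both calls depended on the processing. Mbtps1 (chr8:119508156-119558735, minus strand, 22 exons), which makes the first cut, ranged from 161 to 187 CPM in control and from 130 to 164 CPM with verapamil, and 11 of 12 verapamil libraries lay below every control. The change was small beside that of Insig1, from 173 ± 7.27 to 152 ± 8.23 CPM (SD, n = 12), or -0.19 on the log2 scale (standard error 0.0355, edgeR adjusted p = 9.3e-05). It had the same direction in all 4 sets, and the 4 set sums of each group did not overlap (exact permutation test, p = 0.0286; edgeR adjusted p = 0.013). With the experiment set as a block over the sums it was no longer called (-0.19, edgeR adjusted p = 0.051), and with offsets for GC content and length, described further on, its direction turned (0.04, edgeR adjusted p = 0.60).

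Mbtps2 (chrX:157535371-157598715, minus strand, 11 exons), which makes the second cut within the membrane, was the most uneven of the 8. Control libraries lay close together at 28.4 to 34.1 CPM. Verapamil libraries fell into 2 separate ranges, at 9.09 to 17.6 CPM in the 6 libraries of sets 2 and 3 and V11 (10.6 CPM), and at 25.7 to 35.5 CPM in the other 5 libraries. The coefficient of variation was 6.79% in control and 47.8% with verapamil, against 4.19% to 8.40% and 5.40% to 22.0% for the other 7 genes. The means of 31.5 ± 2.14 and 21.1 ± 10.1 CPM (SD, n = 12) gave a log2 fold change of -0.58 (standard error 0.194, edgeR adjusted p = 0.013). Over the set sums this was no longer called (-0.57, edgeR adjusted p = 0.10; exact permutation test, p = 0.0857), whereas with the set as a block over the same sums it was (-0.66, edgeR adjusted p = 0.045). An exonic stretch of 2867 bases is shared with Yy2 on the same strand, and reads there cannot be assigned to either gene.

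Stard4 (on the minus strand of chromosome 18, 6 exons), the sterol carrier, was the least abundant of the 8 in control cells, with 115 to 906 reads per library. Control libraries ranged from 7.90 to 10.2 CPM with a median of 9.13, and verapamil libraries from 8.97 to 20 CPM with a median of 14.8. Again 11 of 12 verapamil libraries exceeded every control and V11 did not. The means were 9.12 ± 0.642 and 15.1 ± 3.33 CPM (SD, n = 12), a 1.66-fold difference (log2 fold change 0.73, standard error 0.0985, edgeR adjusted p = 1.4e-06). The rise was larger in sets 1 and 4 (1.05 and 0.79 on the log2 scale) than in sets 2 and 3 (0.50 and 0.53), but the interaction did not pass (edgeR adjusted p = 0.35). The plot of the response by set shows these differences side by side.

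**Figure D2:**
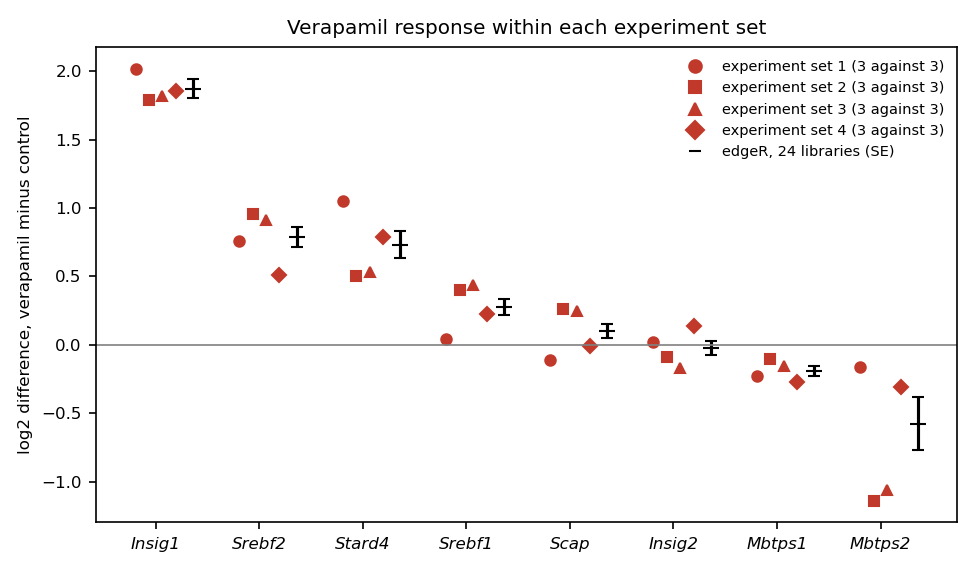
Log2 difference between the verapamil and control means of 3 libraries each, for the 8 genes in each of 4 experiment sets (red symbols), beside the edgeR log2 fold change over 24 libraries with its standard error (black). The 4 sets of Insig1 lie between 1.79 and 2.02, those of Scap on both sides of 0, and those of Mbtps2 between -1.14 and -0.16.

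Taking the 3 libraries of a set as 1 value kept the same 4 genes higher and left Mbtps1 alone lower, while the set as a block over these sums left Mbtps2 alone lower in place of Mbtps1. Over the sums without the block 24.4% of all genes were called higher and 17.3% lower, and with the block 2510 genes were higher and 2292 lower. No gene of the 8 had all 12 verapamil libraries below every control, a pattern found for 5.18% of all genes.

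Per kilobase of exonic length, which allows genes to be set beside each other, the order of levels in control cells was Scap (25.6 CPM per kb), Srebf2 (21.3), Mbtps1 (16.5), Srebf1 (15.5), Insig1 (8.74), Insig2 (6.09), Mbtps2 (3.12) and Stard4 (1.63). The ranges of Scap and Srebf2 overlapped, as did those of Mbtps1 and Srebf1, while all other neighbours were apart. With verapamil Srebf2 (36.8 CPM per kb) and Insig1 (32.0) stood above Scap (27.5), followed by Srebf1 (18.8), Mbtps1 (14.4), Insig2 (5.99), Stard4 (2.71) and Mbtps2 (2.09). The ranges of Srebf2, Insig1 and Scap overlapped from neighbour to neighbour, and so did those of Stard4 and Mbtps2. By its mean on this measure Insig1 moved from the fifth place of the 8 to the second, above Scap in 8 of 12 verapamil libraries. The length took in the exons of all annotated transcripts. Orders by another length were not computed and may differ.

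A property of the libraries moved with part of these values. In each library, the deviation of a gene from the control mean was correlated over 12304 genes with the GC content of its transcript. This correlation lay between -0.178 and 0.156 in control libraries, between 0.482 and 0.635 in the 6 verapamil libraries of sets 2 and 3, at 0.361 in V11, and between 0.0363 and 0.312 in the other 5 verapamil libraries. V11 also had the strongest correlation with transcript length (-0.586). The 7 libraries are the same in which Mbtps2, with the lowest transcript GC content of the 8 (39.96%), was low. Over the 589 genes within 1 point of its GC content the median change was -0.57 on the log2 scale, beside its own -0.58. Conversely Scap, with the highest GC content (59.1%), was high in 6 of them, and the median over genes of like GC content was 0.19. Stard4 (43.93%) and Insig2 (45.98%) had comparison genes with medians of -0.34 and -0.19, below their own values. Srebf2 (57.89%) and Srebf1 (58.39%) had ones with medians of 0.19, and Insig1 (48.2%) and Mbtps1 (50.23%) of -0.05 and 0.06.

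**Figure D3:**
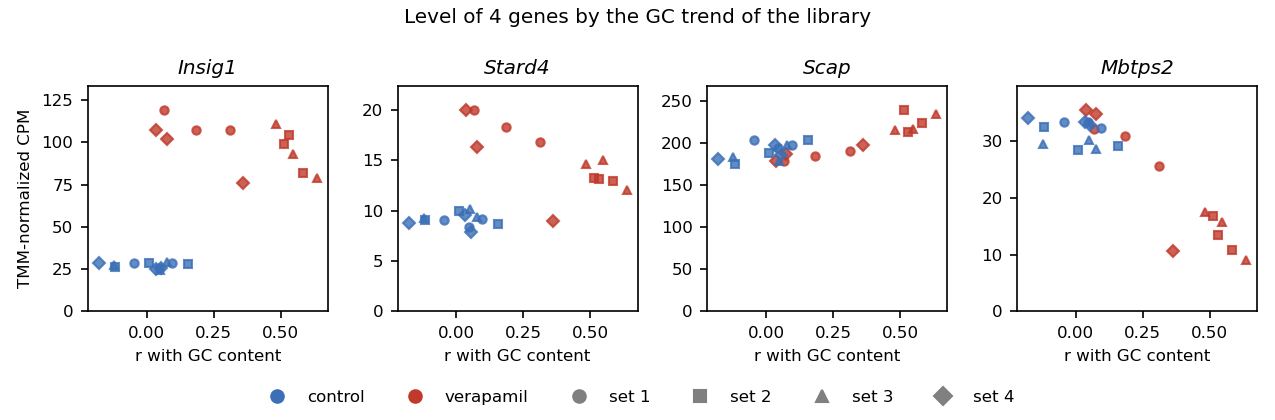
Level of Insig1, Stard4, Scap and Mbtps2 in each library (vertical axis, TMM-normalized CPM from 0) against the Pearson correlation, over 12304 genes, of the library's log2 deviation from the control mean with transcript GC content (horizontal axis). Blue is control, red is verapamil, and the shape gives the experiment set. Mbtps2 is at 17.6 CPM or less in the 7 verapamil libraries with a correlation of at least 0.361, while Insig1 is above 76 CPM in every verapamil library.

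Each gene was therefore also computed with offsets that remove the trend on GC content and length in each library, under which 33.1% of all genes were called higher and 24.5% lower. Insig1 (1.89) and Srebf2 (0.78) kept their log2 fold change, and Srebf1 was at 0.22. Stard4 rose to 1.24 (standard error 0.0775, edgeR adjusted p = 6e-13), which is 0.51 more than without offsets. Insig2 passed as higher at 0.15 (standard error 0.0490, edgeR adjusted p = 0.0098), a turn in direction. Neither protease was called, with Mbtps1 at 0.04 (edgeR adjusted p = 0.60) and Mbtps2 at 0.04 (edgeR adjusted p = 0.66), both turned in direction, and Scap was at 0.03 (edgeR adjusted p = 0.41). The offsets take off any biological change that runs with GC content or length as well as a technical one.

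Leaving out the verapamil libraries of sets 2 and 3 and V11, a choice made after seeing the data, gave another view with 12 control and 5 verapamil libraries. Insig1 was at 2.00, Stard4 at 1.00, Srebf2 at 0.79 and Srebf1 at 0.16 on the log2 scale, all still called higher. Mbtps1 was at -0.20 and still called lower (edgeR adjusted p = 3e-05), unlike under the offsets. Mbtps2 was at 0.006 (edgeR adjusted p = 0.95) and Scap at -0.06 (edgeR adjusted p = 0.22), and Insig2 was at 0.09 (edgeR adjusted p = 0.24). So the 4 increases were called in all of these computations, and the lower level of Mbtps2 was not. The plot of fold changes under different processing sets them out.

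**Figure D4:**
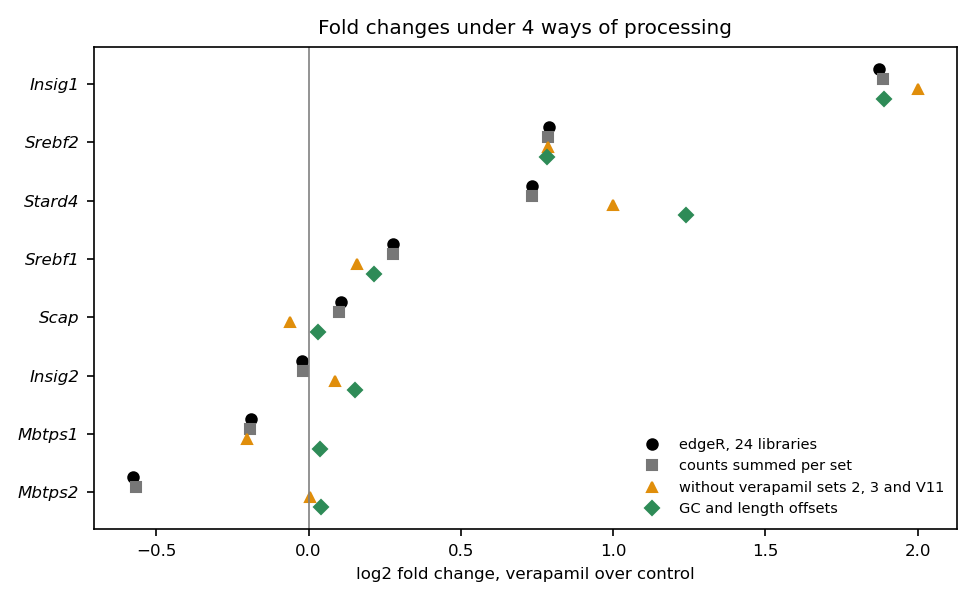
Log2 fold change of verapamil over control for the 8 genes, from edgeR on 24 libraries (black circles), on counts summed per experiment set (grey squares), without the verapamil libraries of sets 2 and 3 and V11 (orange triangles), and with GC and length offsets (green diamonds). The Insig1 values span 1.87 to 2.00, and the Mbtps2 values span -0.58 to 0.04.

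The genes on which the pathway acts were taken from lists of textbook members. Counts of called genes in these lists stand beside shares over all genes of 31.2% higher and 31.6% lower. The shares were 33.1% and 24.5% with the offsets, and 24.4% and 17.3% over set sums. Of 20 listed enzymes of sterol synthesis, 17 were measured and all 17 rose, with a median log2 fold change of 1.29 against -0.003 over all genes, and 17 were called higher with the offsets and 16 over set sums. The largest changes were those of Tm7sf2, a sterol reductase, from 28.2 to 134 CPM, Fdps, the farnesyl diphosphate synthase, from 50.3 to 209 CPM, and Msmo1, a methylsterol oxidase, from 21.8 to 81.6 CPM. All 12 verapamil libraries were above every control for each of these. Set beside the list, Insig1 (1.87) lay above its median, and Srebf2 (0.79) and Stard4 (0.73) below it.

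For sterol uptake, 9 of 14 listed genes were measured, of which 6 rose (66.7%) and 3 fell (33.3%), with a median log2 fold change of 0.22. Mylip, a ubiquitin ligase that sends lipoprotein receptors to the lysosome, fell from 6.26 to 4.30 CPM (log2 fold change -0.55), and Snx17, which returns receptors to the surface, rose from 97.2 to 130 CPM (0.42). Under the offsets Mylip was at -0.575 and Snx17 at 0.199. Npc1, which exports cholesterol from lysosomes, rose by 0.22 on the log2 scale. Receptor genes went both ways, with Lrp8 (0.285) and Scarb1 (0.284) higher and Vldlr (-0.36) and Lrp1 (-0.25) lower. With the offsets 6 genes were called higher and only Mylip lower, so that Vldlr and Lrp1 were no longer called lower. Over set sums 4 genes were called higher and 2 lower.

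Among 9 measured sterol carriers other than Stard4, of 11 listed, 2 rose (22.2%), 3 fell (33.3%) and 4 did not pass. The shares over all genes were 31.2% and 31.6%, and the list median was 0.003. Gramd1b, which brings plasma membrane cholesterol to the endoplasmic reticulum, fell from 37.7 ± 3.42 to 21.6 ± 3.08 CPM (SD, n = 12), with all 12 verapamil libraries below every control. Its paralog Gramd1a rose by 0.23 on the log2 scale. Osbpl1a (-0.46) and Scp2 (-0.34) fell, though with the offsets Scp2 was at -0.10 and no longer called. The highest value on the list, 0.33 for Stard5, did not pass (edgeR adjusted p = 0.14), and lay below the 0.73 of Stard4. Over set sums 1 carrier was called higher and 2 lower.

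All 27 listed genes that move SCAP in COPII vesicles or degrade INSIG proteins were measured. Of these 12 were called higher (44.4%) and 4 lower (14.8%), against 31.2% and 31.6% of all genes. The other 11 did not pass, and the median was 0.09. Aup1 (0.48) and Ube2g2 (0.41), which encode a membrane adaptor and the ubiquitin-conjugating enzyme it recruits, were highest, with all 12 verapamil libraries above every control. Both were smaller with the offsets, at 0.21 for Aup1 and 0.19 for Ube2g2, and still called. Of the ubiquitin ligase genes, Syvn1 (0.21) rose and Rnf139 (-0.40) fell. Of the coat subunits, Sec23b (0.30), Sec31a (0.28), Sec24c (0.23) and Sec13 (0.14) were called higher. Only Sec23a was called lower, at -0.42 and from 3.24 to 2.41 CPM, and the other listed subunits did not pass. The Sec23a call was close to the threshold (edgeR adjusted p = 0.047). It was lost over set sums (-0.415, edgeR adjusted p = 0.13) and in several fits that left out 1 library, and Sec23a was at 0.08 with the offsets. With the offsets 16 of the 27 were called higher and none lower. Over set sums 7 were called higher, near the share of 24.4% of all genes, and 1 lower.

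Of 8 other listed substrates of the site-1 and site-2 proteases 6 were measured. Creb3l1, a membrane-bound factor of the secretory pathway cut by the same proteases, rose from 10.9 ± 0.946 to 27.6 ± 4.95 CPM (SD, n = 12; log2 fold change 1.33). Creb3 (0.41) and Atf6b (0.20) also rose, and 3 did not pass. Only 1 verapamil library lay above every control for Creb3. With the offsets Creb3 was at 0.19 and no longer called (edgeR adjusted p = 0.05), and Atf6b turned to -0.02. Those called higher were 50.0% of the measured genes, against 31.2% of all genes. The list median was 0.14. With the offsets 4 were called higher, and over set sums 2.

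Fatty acid genes under SREBP-1 rose in 10 of 13 measured cases of 15 listed, with 3 that did not pass and a median of 0.65. Acss2, which makes acetyl-CoA from acetate, went from 52.8 to 145 CPM, Fasn, the fatty acid synthase, from 106 to 205 CPM, and Fads1, a desaturase, from 93.3 to 179 CPM. These are changes of 2.75-, 1.93- and 1.91-fold, against 1.21-fold for Srebf1 itself. With the offsets 12 of the 13 were called higher, and over set sums 9. Of the LXR list, 5 of 7 genes were measured. Those for the receptor Nr1h2 (0.32) and its partners Rxra (0.25) and Rxrb (0.18) rose, but only 1 gene of the list was called higher with the offsets and 1 over set sums. Nr1h2 was at 0.07 with the offsets (edgeR adjusted p = 0.21) and at 0.10 without the 7 verapamil libraries (edgeR adjusted p = 0.20). The cholesterol exporters Abca1, from 102 ± 10.3 to 42.6 ± 13.8 CPM (SD, n = 12), and Abcg1, from 66.6 ± 8.70 to 35.2 ± 6.66 CPM (SD, n = 12), fell, with all 12 verapamil libraries below every control for both. On the log2 scale Abca1 was at -1.26 and, with the offsets, at -0.835. Abcg1 was at -0.922 and, with the offsets, at -0.834. The plot of the lists shows all measured genes.

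**Figure D5:**
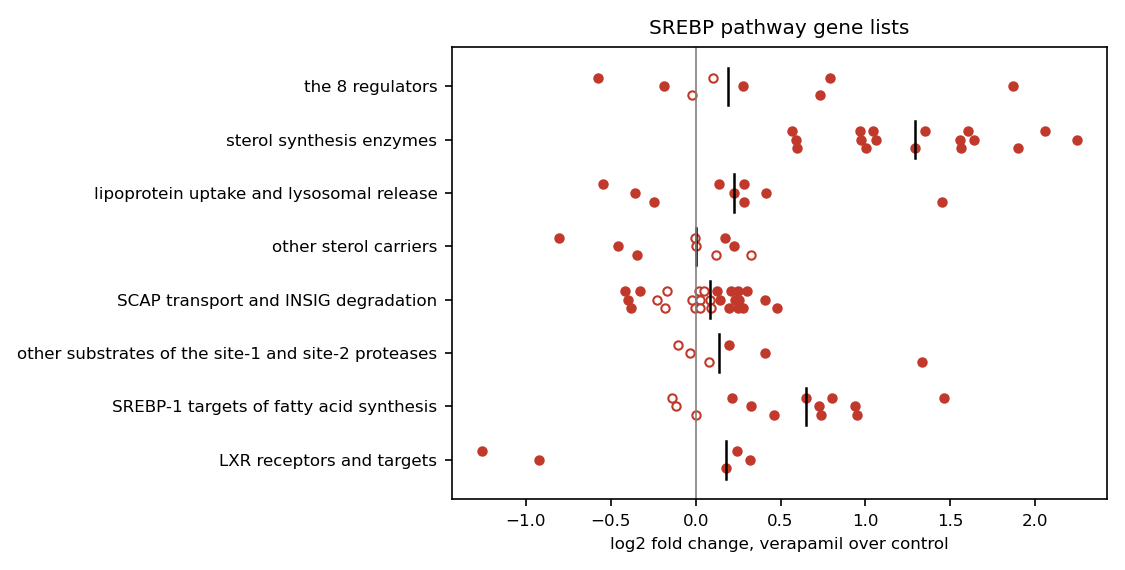
Log2 fold change (verapamil over control, edgeR, 24 libraries) of each measured gene of 8 lists. Filled points passed an adjusted p of 0.05, open points did not, and black bars are list medians. All 17 sterol synthesis enzymes lie right of 0.5, the 8 regulators run from -0.58 to 1.87, and the 2 points furthest left are Abca1 and Abcg1.

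The genes with the nearest profile over the 24 libraries were found by the root mean square difference of centred log2 CPM among 10005 genes. For Insig1 they were Msmo1 (0.187) and Cyp51 (0.221), both enzymes of sterol demethylation, and then Camk4, Dner and Ncald (0.231 to 0.249). For Stard4 they were Osbpl6, Spg20, Scd2, Smad9 and Robo1 (0.146 to 0.196), and for Srebf2 they were Irs2, Fn1, Tnfrsf21, Diras2 and Scd2 (0.089 to 0.122). Those of Srebf1 were Cpn1, Lsr, BC037034, Snph and Lemd2 (0.089 to 0.096). All libraries entered these distances, so the likeness takes in the difference between the groups.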

How the data were processed

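RNA of MIN6 cells was sequenced in 24 libraries (12 control, 12 verapamil). What the authors deposited are unnormalized read counts per gene, for which the paper and the submitters' processing notes name bcl2fastq 2.20, Trimmomatic 0.39, HISAT2 2.1.0 on GRCm38 and HTSeq 0.9.1. Strand setting and annotation release: not given in the sources used here. Without strand, reads shared with genes on the opposite strand (109 exonic bases of Srebf1 with Rai1, 985 of Scap with 5830462I19Rik) cannot be told apart. The paper and the labels name different kits and RNA amounts (40 ng against 1.3 µg). The authors also deposited their own comparison (average log2 CPM, fold change as a ratio and as log2, p-value, adjusted p-value and a score column headed as a log10 p-value). None of these was used.

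Total counts were 12590476 to 32360171 in control and 21840159 to 44806556 in verapamil libraries. Groups came from the labels. Counts were compared with edgeR 4.0.16 under R 4.3.3 (genes kept by filterByExpr with at least 10 counts and 15 in total; TMM; quasi-likelihood test without covariates; Benjamini-Hochberg over 12306 genes; threshold 0.05). Dividing the absolute log2 fold change by the square root of F gave its standard error. The same model with set terms tested the interaction. CPM are TMM-normalized without a pseudocount. GC content and length come from GENCODE M21 on GRCm38, promoters from RefSeq. Offsets used natural splines (df 4) of GC content and log2 length in each library. Ratios and set sums were tested by permutation with scipy 1.17.1. The code was checked on simulated counts. Tables and plots used Python 3.11.15 with matplotlib 3.10.9, pandas 2.3.3 and numpy 2.4.6. No 2 libraries of a group agreed within sampling noise (lowest chi-square per degree of freedom 5.73).

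The members and lists were chosen with earlier results of these data known. Named are the 8 genes, of each list up to 3 called genes (mean of at least 1 CPM in a group) in order of the size of their change, and for Insig1, Stard4, Srebf1 and Srebf2 the 5 genes of nearest profile without pseudogenes and predicted genes. Npc1, Lrp8, Scarb1, Vldlr, Lrp1, Gramd1a, Stard5, Sec23b, Sec31a, Sec24c, Sec13, Syvn1, Rnf139, Rxra and Rxrb were named after their values were seen. Some genes that the rule names are not reported here. Alternatives were another normalization or filter, DESeq2 1.42.0, blocks, set sums, single sets, left-out sets and libraries, and the offsets.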

Additional observations from a re-analysis of the deposited data

Results flagged for a closer look

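Scap was picked out because its response differed between experiment sets in the test of the interaction of set and treatment (edgeR adjusted p = 0.031). Its means in set 1 were 198 CPM in control and 184 CPM with verapamil, in set 2 they were 188 and 226 CPM, in set 3 186 and 222 CPM, and in set 4 188 and 188 CPM. The verapamil libraries of sets 2 and 3 are also those with the strongest correlation with transcript GC content (0.482 to 0.635), and the part of that trend in the difference was not tested.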

How the results depend on the processing

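Each of the 8 genes was recomputed under 45 alternatives. The increase of Insig1 was called in all 45, those of Srebf2 and Stard4 in 44 and that of Srebf1 in 43; the exceptions were set 4 alone for Srebf2, Stard4 and Srebf1 (0.51, 0.79 and 0.23 on the log2 scale) and set 1 alone for Srebf1 (0.04). Leaving out any 1 library changed none of the 6 calls, but Scap was called without V1, V3 or V10 (edgeR adjusted p of 0.047, 0.036 and 0.035), without set 1 or set 4 (0.012 and 0.04), and in set 2 or set 3 alone (0.015 and 0.04). The number of the 8 genes called lower, 2 in all libraries, was 0 with the offsets, with or without the set as replicate block, and 0 in set 4 alone. It was 1 over set sums with or without the block, in set 1, 2 or 3 alone, without set 2 or set 3, and with the verapamil libraries of sets 2 and 3 and V11 left out. The number called higher was 1 in set 4 alone, where V11 lies. Over all genes, 2124 were lower over set sums, and with the replicate block over set sums 2510 were higher and 2292 lower. Set 1 alone gave 1680 higher and 1721 lower, set 3 alone 2445 higher, set 4 alone 39 higher and 11 lower, leaving out set 2 gave 2518 lower, and leaving out the 7 libraries gave 2509 higher and 2697 lower. Fewer libraries entered the fits of single or left-out sets and libraries, and all 24 entered the sums; other causes were not tested.

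Directions turned as follows on the log2 scale: Scap to -0.12 in set 1 alone, -0.003 in set 4 alone and -0.061 without the 7 libraries; Insig2 to 0.15 with the offsets (with or without the block), 0.014 and 0.14 in sets 1 and 4 alone, 0.02 without set 3 and 0.086 without the 7 libraries; Mbtps1 to 0.039 with the offsets and 0.034 with the block added; Mbtps2 to 0.04 and 0.038 in the same fits and 0.006 without the 7 libraries; Sec23a to 0.079 and 0.07 with the offsets; and Atf6b to -0.022 in both, -0.08 in set 1 alone and -0.011 without the 7 libraries. The cause was not tested.

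Equal replicate numbers did not pair the libraries (correlation of deviations -0.051 to 0.114 over 10 pairs, of which 2 were over 0.1, with 1 verapamil library closest to its own number). As an alternative, the replicate block by number on the numbered libraries gave 4 of the 8 genes higher and 2 lower, 3651 genes higher and 3917 lower in all, against 3872 and 3860 without the number term, a comparison added after seeing the data. The experiment set as replicate block gave 4 and 2 of the 8, and 3852 and 4073 of all genes. It changed no call of the 8 genes over single libraries, but over set sums Mbtps1 was lost (edgeR adjusted p = 0.051) and Mbtps2, not called there without the block, was called lower (-0.66, edgeR adjusted p = 0.045). Depth limits Stard4 most, at 115 reads in the shallowest library.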
